A study of Drosophila melanogaster with 2 samples.

Results

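The genes described are the microRNA precursor genes of Drosophila melanogaster, meaning the genes whose transcript is annotated as pre_miRNA in Ensembl release 115 and which lie on a nuclear chromosome arm. They number 260 of 17796 annotated genes on these arms, with transposons and mature microRNAs left out of the total. They were tested for binding of a CG32121-eGFP fusion protein in chromatin immunoprecipitation with sequencing (ChIP-seq) of whole pupae. Of the precursor genes, 58 are on arm 3R, 58 on X, 56 on 2L, 55 on 2R, 31 on 3L and 2 on chromosome 4. The annotated hairpins are 50 to 174 bp long, with a median of 92 bp.

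A microRNA is cut from a hairpin in a longer transcript. The nuclear enzyme Drosha releases the hairpin and Dicer-1 cuts it to a short duplex, of which 1 strand enters Argonaute-1 and guides it to matching messenger RNAs, mainly through bases 2 to 8, called the seed. Some hairpins are transcribed from a promoter of their own, often far upstream, and clustered hairpins can share a transcript. Others lie in introns of a host gene and are made with its transcript, and a mirtron is an intron that is itself the hairpin and bypasses Drosha by splicing. For this reason a protein bound near a hairpin, upstream of it or at the promoter of its host gene are separate measurements.

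Both libraries came from pupae aged 2 days of the transgenic strain CG32121-GFP, whose CG32121 protein carries an eGFP tag. Chromatin was pulled down through the tag with anti-GFP. There was 1 group of 2 biological replicates and no contrast between groups. Input and untagged material were not analysed here. Each animal is a mixture of cell types, and a peak cannot be assigned to one of them. The main list was the authors' conservative list of 7676 peaks in dm6, thresholded by irreproducible discovery rate (IDR). A peak's summit is its highest position, and its signal is the value the authors gave it, on a scale not given in the sources used here, so it serves here to order peaks and no more. The number of reads is unknown.

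The mature sequences below are those of 11 precursors with a summit within 500 bp and of the let-7 complex (let-7, miR-100 and miR-125), with miR-2a, miR-13b, miR-279 and miR-996 added to show shared seeds. They are shown because the seed decides which messages a microRNA can pair with. They are RefSeq sequences of Release 6, written 5′ to 3′ with U, with the seed in capitals. All 260 precursors had a mature product in RefSeq, 481 in all. For miR-966 and the microRNAs after it, the strand shown is the 5′ arm (5p), or for miR-4911 the sole annotated arm, and need not be the guide strand.
miR-11-3p (chr3R:21622504-21622524, minus strand): cAUCACAGucugaguucuugc
miR-2a-1-3p (chr2L:19569902-19569924, minus strand): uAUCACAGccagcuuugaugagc
miR-13b-2-3p (chrX:9091275-9091296, plus strand): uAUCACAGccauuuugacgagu
miR-92b-3p (chr3R:25651457-25651478, plus strand): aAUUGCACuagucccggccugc
miR-275-3p (chr2L:7425853-7425875, plus strand): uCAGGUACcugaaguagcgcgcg
miR-279-3p (chr3R:29215651-29215672, plus strand): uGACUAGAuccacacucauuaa
miR-996-3p (chr3R:29217244-29217265, plus strand): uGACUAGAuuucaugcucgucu
miR-100-5p (chr2L:18471445-18471466, plus strand): aACCCGUAaauccgaacuugug
let-7-5p (chr2L:18472044-18472064, plus strand): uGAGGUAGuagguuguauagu
miR-125-5p (chr2L:18472343-18472364, plus strand): uCCCUGAGacccuaacuuguga
miR-966-5p (chr2L:6045678-6045698, minus strand): uGUGGGUUgugggcugugugg
miR-4911-3p (chr3R:15836287-15836308, minus strand): aUCUUUUUguccccccgcguag
miR-4968-5p (chr3L:11552624-11552645, minus strand): uAGCUGCCacgguuuguugcuu
miR-4957-5p (chrX:15320005-15320026, minus strand): uACGCACUcugcuggcagcgcu
miR-4962-5p (chrX:3777408-3777431, plus strand): uUUCCCUCucucuguuuacauuga
miR-2491-5p (chrX:22833545-22833566, minus strand): cGCUGUUGccuuugcaguugcu
miR-9370-5p (chrX:11710280-11710301, minus strand): uUUGGGUUgccgguaccgggug
miR-9377-5p (chrX:12665217-12665238, plus strand): cGCUCUUUcucucuaucuggcc

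The seed AUCACAG, found in miR-11, miR-2a and miR-13b, is the most shared in the annotation and occurs in 14 precursors at 7 loci. A summit lay within 5 kb upstream of 6 of them, at 4 loci, and within 500 bp of 1, mir-11, where 30.8% of all precursors had an upstream summit. AUUGCAC, the seed of miR-92b, occurs in 6 precursors at 2 loci, of which 5 had an upstream summit, 4 of them in 1 cluster with a single shared peak. miR-279 and miR-996 share the seed GACUAGA with 1 other precursor, and 2 of those 3 had an upstream summit, which is a single shared peak.

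The windows next reach 50 bp to each side of the summit (dm6, plus strand) at 5 of the 6 strongest peaks near precursors. The remaining one, with a signal of 853.5, is not printed. Capitals mark matches to 5 motifs, searched on both strands, namely the palindrome TATCGATA, the repeat GAGAGAG, the TATA box form TATAAA, the repeat CACACAC and the promoter motif GGTCACAC.
mir-279 and mir-996 (chr3R:29214389-29214489): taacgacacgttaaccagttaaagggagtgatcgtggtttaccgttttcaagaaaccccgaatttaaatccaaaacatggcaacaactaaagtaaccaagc
mir-9a (chr3L:19560770-19560870): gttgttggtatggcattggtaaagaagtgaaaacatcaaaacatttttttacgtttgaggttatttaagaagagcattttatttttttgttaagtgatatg
mir-9383 (chr3R:15219059-15219159): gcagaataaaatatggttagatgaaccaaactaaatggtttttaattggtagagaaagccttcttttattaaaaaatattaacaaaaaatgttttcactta
mir-4943 (chr2L:16533183-16533283): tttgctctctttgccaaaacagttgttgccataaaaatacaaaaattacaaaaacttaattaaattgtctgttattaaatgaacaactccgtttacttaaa
mir-276a (chr3L:10363833-10363933): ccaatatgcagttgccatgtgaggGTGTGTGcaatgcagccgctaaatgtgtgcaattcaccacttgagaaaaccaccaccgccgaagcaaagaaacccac

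Of these windows, only that of mir-276a held a motif, CACACAC read on the other strand. GC content ranged from 23.8% at mir-9383 to 50.5% at mir-276a. Over the 124 distinct summits near precursors, TATAAA occurred in 16 windows (12.9%) against 17.7% of all 7676 summits. CACACAC was found in 8 (6.45% against 4.78%) and GAGAGAG in 4 (3.23% against 3.27%). GGTCACAC occurred in 2 (1.61% against 0.547%) and TATCGATA in 1 (0.806% against 0.638%), counts too small to compare. A match describes letters only and is not a binding site.

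A summit lay within 500 bp of the 5′ end of 14 of the 260 precursors, 5.38% (95% Wilson interval 3.23 to 8.83, counting error only). The share of all arm bases with a summit within 500 bp was 5.08%, so the precursors' share was near that background. It was below the shares of all genes (16.4%) and of protein-coding genes (18.3%) measured at their annotated 5′ end. Upstream, 80 precursors (30.8%, 25.5 to 36.6) had a summit within 5 kb. The share of arm bases for the same upstream rule was 18.9%, that of all genes 31.3% and that of protein-coding genes 32.5%. The precursors' share was above that of bases and near that of genes. Downstream, 55 precursors (21.2%, 16.6 to 26.5) had a summit within 5 kb, near the 18.9% of bases, a share that counts both strands and so holds for either side. All 14 were among the 80, which left 66 with an upstream summit only and 180 with neither.

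Neighbouring precursors are not independent. Joining those of 1 strand less than 10 kb apart gave 203 loci, 181 with 1 precursor and 22 with several, and 66 of the 203 (32.5%, 26.4 to 39.2) had a summit within 500 bp or upstream. The 124 distinct summits within these windows included 12 beside 2 or more precursors, and 1 summit stood beside 7. Of 118 summits matched in each replicate, 114 (96.6%) had the higher signal in replicate 2, which is near the 96.1% of all peaks. Close peaks can match the same replicate summit, so some replicate summits count more than once. The median ratio of replicate 2 to replicate 1 was 1.73 near precursors and 1.72 over all peaks. Median signal was 129 near precursors and 121.5 over all peaks, and 45 summits (36.3%) were no more than 500 bp from the transcription start site (TSS) of a protein-coding gene, against 37.7% of all summits.

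**Figure D1:**
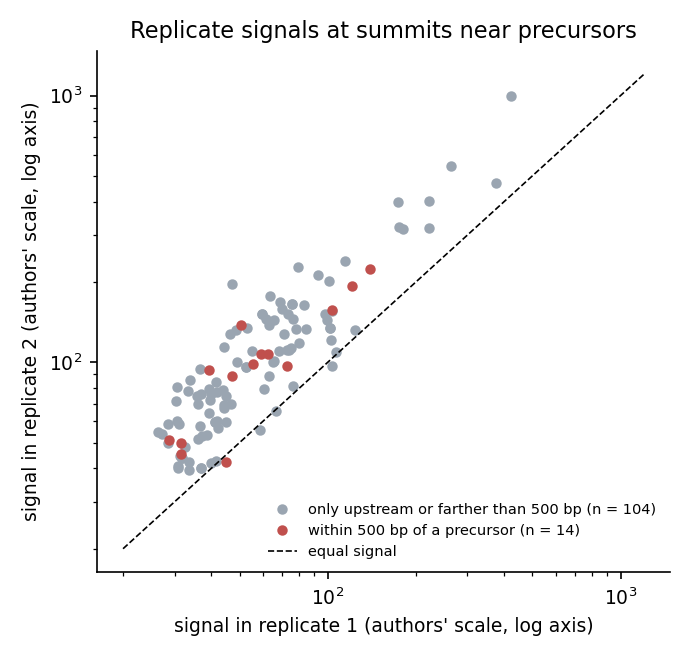
Signal in replicate 1 (horizontal) and replicate 2 (vertical), on the authors' scale and log axes, at the 118 summits near precursors that matched a summit in both replicates. Most points lie above the dashed line of equal signal, 114 of 118, and the highest point is the mir-279 and mir-996 summit. Close peaks that matched the same replicate summits fall on the same point.

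The replicates' own lists gave fewer precursors. Within 500 bp, replicate 1's list had 12 precursors and replicate 2's had 9. Of the 14 in the conservative list, 9 had a summit in both replicates' lists and 5 in neither: mir-281-1, mir-4985, mir-4968, mir-4911 and mir-4957. Upstream, replicate 1's list had 52 and replicate 2's had 79, and of the 80 of the conservative list 47 were in both and 5 in neither. Replicate 2 alone thus gave nearly the upstream count of the conservative list, and replicate 1 alone gave fewer.

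The precursors within 500 bp were a mixed set of named and recently annotated hairpins. The strongest peak of the set belonged to mir-9377 (chrX:12665217-12665268), in an intron of Tis11, an RNA-binding protein that promotes messenger RNA decay. Its signal was 369.2 (139.1 in replicate 1, 223.9 in replicate 2), at 406 bp downstream of the hairpin's 5′ end. mir-2491 (chrX:22833440-22833583), in an intron of fog, the secreted signal for apical constriction in gastrulation, had a summit at −143 bp with a signal of 320.4 (120.8 and 193.7). Negative positions are upstream. The fog host itself had no promoter summit.

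mir-275 (chr2L:7425795-7425892) lies in an exon of lncRNA:CR43857. In the mosquito Aedes aegypti it is needed for blood digestion and egg development. It had a summit at −464 bp with a signal of 263.9 (103.6 and 157.6), and 5 summits in the 5 kb upstream, the highest number at a precursor and also that of mir-276b. The lowest signal among them was 91.6 at mir-275, whereas those of mir-276b included signals of 3.501 and 2.53 beside stronger peaks. mir-305, which follows mir-275 in the same cluster and acts on Notch and insulin signalling in the gut, shared the summit of 263.9, at −641 bp. Another summit of 259.5 lay 196 bp before the TSS of lncRNA:CR43857.

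mir-4962 (chrX:3777382-3777505), in an intron of Tlk, a chromatin kinase, had a summit at +57 bp with a signal of 184.8 (50.75 and 137.6). The stronger summit of its locus, 492.6 (175.5 and 321.4), stood at −2926 bp. mir-9370 (chrX:11710252-11710301) overlaps an exon of Amun and had a summit at −223 bp with a signal of 172 (59.17 and 107.3). mir-11 (chr3R:21622497-21622571), in an intron of E2f1, the cell cycle transcription factor, limits the apoptosis that E2f1 can trigger. Its summit stood at −488 bp with a signal of 162.1 (62.51 and 107.8), shared with its neighbour mir-998. An E2f1 TSS had its own summit of 66.76.

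mir-92b (chr3R:25651398-25651497), which acts in a feedback loop with the muscle factor Mef2, overlaps jigr1 and lncRNA:CR45917. Its summit at +214 bp had a signal of 141.4 (55.58 and 98.32), and summits of 252.4 and 239.8 lay at jigr1 start sites upstream. mir-966 (chr2L:6045627-6045713), in an intron of Pfas, an enzyme of purine synthesis, had a summit at −376 bp with a signal of 136 (39.3 and 93.32), 39 bp before a Pfas TSS.

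The other 6 were weaker or on arm 2R. mir-4957 (chrX:15319954-15320037) lies antisense in Top1 and had a summit at +30 bp with a signal of 81.18. mir-4911 (chr3R:15836287-15836354), a mirtron of ND-23, a subunit of respiratory complex I, had one at −273 bp with a signal of 74.17. mir-4968 (chr3L:11552539-11552693), in Mob2, had one at +380 bp with a signal of 29.14, the lowest of the 14 and matched in replicate 2 only. On 2R, mir-14 (chr2R:9553762-9553824), which restrains cell death and fat storage and acts in ecdysone signalling, had summits at −223 and +461 bp with signals of 106.7 and 176.3. mir-281-1 (chr2R:12170373-12170462), in Oda and asRNA:CR46194, had one at −335 bp with a signal of 81.79. mir-4985 (chr2R:24294231-24294331), in Fatp3, had one at −101 bp with a signal of 74.06, 33 bp past the Fatp3 TSS. Of the 14 precursors, 5 had every summit within 500 bp at a protein-coding TSS and 9 had none there. The hairpins closest to the limit were mir-14 at +461, mir-275 at −464 and mir-11 at −488 bp inside it, and mir-9378 at −504, mir-274 at −539 and mir-281-2 at −553 bp outside it. For the upstream rule, the summits nearest to the limit were mir-193 at −4976 bp inside and mir-4943 at −5003 and mir-2282 at −5036 bp outside.

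Among the 66 precursors with an upstream summit only, those of highest signal were led by mir-279 and mir-996, which keep carbon dioxide sensing neurons from forming in the wrong place. Both lie in lncRNA:CR31044, and their shared summit had a signal of 1404 (423.1 and 992.5), rank 27 of all peaks. It stood at −1146 bp of mir-279 and −2745 bp of mir-996, 123 bp before the TSS of their host RNA. mir-9a (chr3L:19565131-19565208), which secures the number of sensory bristles, had a summit of 884 (264.2 and 545.2) at −4311 bp. mir-9383 had one of 612.4 (220.9 and 400.8) at −2686 bp, 147 bp before the CG12241 TSS.

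mir-4943 followed with 585.7 (174.4 and 398.2) at −4742 bp, 356 bp before a CG5953 TSS. mir-276a, which acts in olfactory memory, had a summit of 555 (222.4 and 319.5) at −1345 bp, 136 bp before a TSS of lncRNA:CR46006. Its relative mir-276b had 268.3 (123.7 and 131.7) at −4702 bp. mir-9382 had 497.2 at −2868 bp, by the MRP start site. mir-282 had 352.8 at −4487 bp. mir-87, which is needed for dendrite regeneration, had 303.9 at −3797 bp, 12 bp before a TSS of CG4709 that is not its host. mir-4963 had 264.8 at −4053 bp, and mir-305 is given above. In each of these, the signal of replicate 2 exceeded that of replicate 1.

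**Figure D2:**
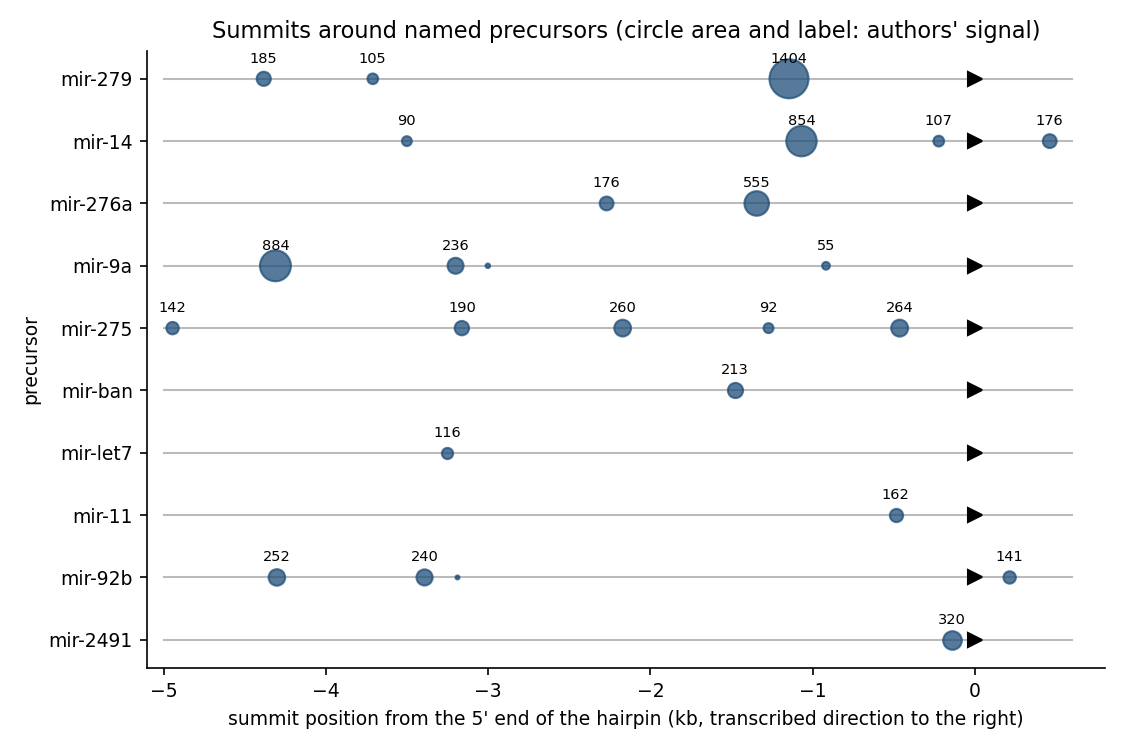
Summits around 10 named precursors, by position from the 5′ end of the hairpin (kb, triangle at 0) from 5 kb upstream to 500 bp downstream. Circle area is proportional to the authors' signal, which is written above circles over 20. The highest signals, 1404 at mir-279, 884 at mir-9a and 853.5 at mir-14, lie 1 kb or more upstream.

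The upstream summits were sorted by the start sites near them, with summits near precursors at a coding TSS about as often as all summits, as given above. Of the 80 precursors, 31 had an upstream summit within 500 bp of a TSS of their host gene, 15 others had one at a TSS of another protein-coding gene, and 34 had neither. The strong mir-14 summit, 853.5 (374.5 and 470.7), lay 151 bp before the TSS of its host lncRNA:CR43651. The intronic precursors divided into 16 at a host TSS, 5 at another coding TSS and 12 at neither. Intergenic precursors, which have no host, had 2 at a coding TSS and 9 at neither. Of these 9, 7 are the mir-310 cluster with 1 shared peak, whose summit lay 631 bp past a TSS of the coding gene HnRNP-K. Start sites of noncoding RNA genes that are not the host were not checked. mir-305, also among the 9, had the upstream summit of 259.5 that lay 196 bp before the TSS of lncRNA:CR43857.

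To compare settings, a precursor was intronic when it lay inside an intron of a gene on its strand and overlapped no exon of one (small RNA genes not counted), and intergenic when it overlapped no other gene. There were 100 intronic, 48 intergenic, 85 exonic and 27 antisense precursors, and 31 were mirtrons. Within 500 bp, 8 of 100 intronic (8.0%, 4.11 to 15.0) and 0 of 48 intergenic precursors had a summit. The upper limit for 0 of 48 is 6.25% by the rule of 3 counts and 7.41% by the Wilson interval drawn in the plot by class. The difference was 8.0 percentage points, with a Newcombe 95% interval of −0.37 to 15.0. The interval excluded 0 when any base of the peak counted (1.34 to 17.4) and when distance was taken from the nearest base of the hairpin (0.486 to 16.2). All these intervals treat precursors as independent. By separate loci, 8 of 90 intronic and 0 of 30 intergenic loci had a summit. That difference was 8.89 points, with an interval of −3.255 to 16.57 that includes 0. The share of intronic bases was 6.5% and that of intergenic bases 3.58%, so bases differed in the same direction, and neither class lay outside its base share by more than its interval.

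Upstream, 33 of 100 intronic precursors (33.0%, 24.6 to 42.7) and 11 of 48 intergenic precursors (22.9%, 13.3 to 36.5) had a summit. The difference was 10.1 points (−5.94 to 23.7), an interval that includes 0, whereas it excluded 0 at the stricter IDR of 0.001 (4.88 to 26.3) and with a window of 10 kb (3.08 to 34.2). Bases with the same rule gave 21.9% in introns and 10.4% between genes, and both intervals, which treat precursors as independent, lay above the share of bases. Of the 11 intergenic precursors, 7 were the cluster mir-310, mir-311, mir-312, mir-313, mir-2498, mir-991 and mir-992 on 2R, which shared 1 summit of 82.14 (28.49 and 49.98). By loci, 30 of 90 intronic and 5 of 30 intergenic loci had one, a difference of 16.7 points (−2.42 to 30.5). Counted this way, the intergenic share was 16.7% (7.34 to 33.6), an interval that includes the 10.4% of intergenic bases. The other 4 intergenic precursors were mir-305, mir-317, mir-193 and mir-2496. Leaving out summits at protein-coding start sites reduced the difference to 1.25 points (−13.5 to 13.6), with 20 of 100 against 9 of 48. These 9 include the 7 of the mir-310 cluster. Their 1 shared summit lay 631 bp past an HnRNP-K TSS, outside the 500 bp limit, and so was kept. The difference without that peak was not computed. Replicate 1's list gave 19 of 100 against 3 of 48, a difference of 12.8 points whose interval, 0.34 to 22.4, excludes 0.

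**Figure D3:**
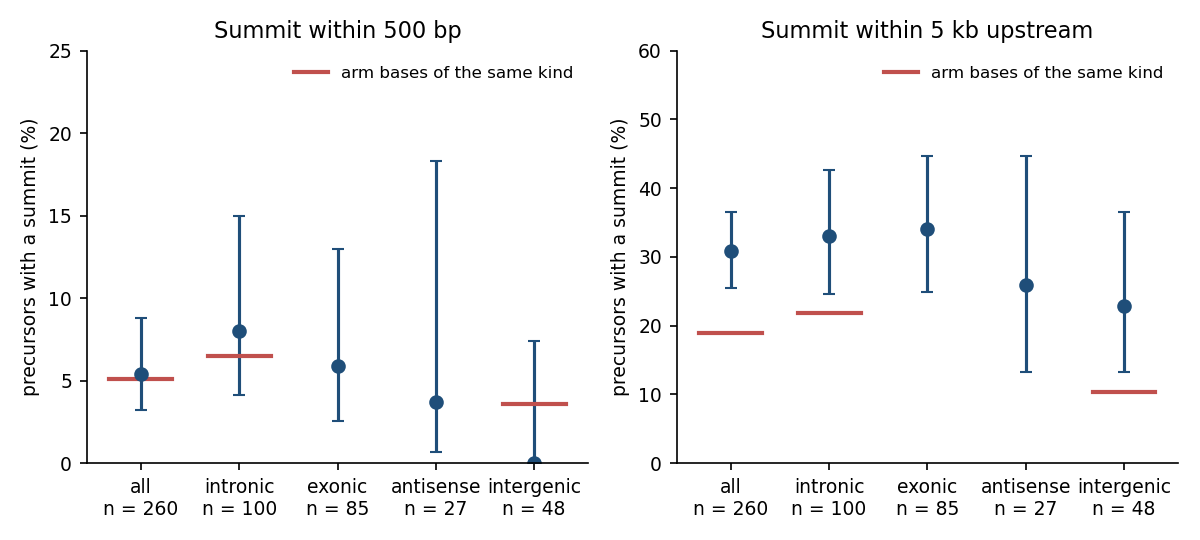
Share of precursors with a summit (points, percent) with 95% Wilson intervals by class, within 500 bp at left and within 5 kb upstream at right. Red lines give the share of arm bases of the same kind. Where a base share is drawn, the intervals within 500 bp include it and those upstream lie above it, with clustered precursors counted singly.

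Other classes did not stand far from these. Exonic precursors had 5 of 85 within 500 bp (5.88%) and 29 of 85 upstream (34.1%). Antisense precursors had 1 of 27 and 7 of 27. Of the mirtrons, 1 of 31 had a summit within 500 bp and 9 of 31 upstream (29.0%, 16.1 to 46.6), against 24 of 69 other intronic precursors (34.8%, 24.6 to 46.6). Intronic precursors whose host start lay within 5 kb had an upstream summit in 14 of 41 cases, and those with a more distant host start in 19 of 59. The host start here is the outermost 5′ end of the host gene, so a nearer TSS inside the gene was not considered. mir-967, 86511 bp from the outermost start of bun, had an upstream summit 31 bp past another bun TSS. The split therefore does not measure the distance to the nearest host promoter.

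**Figure D4:**
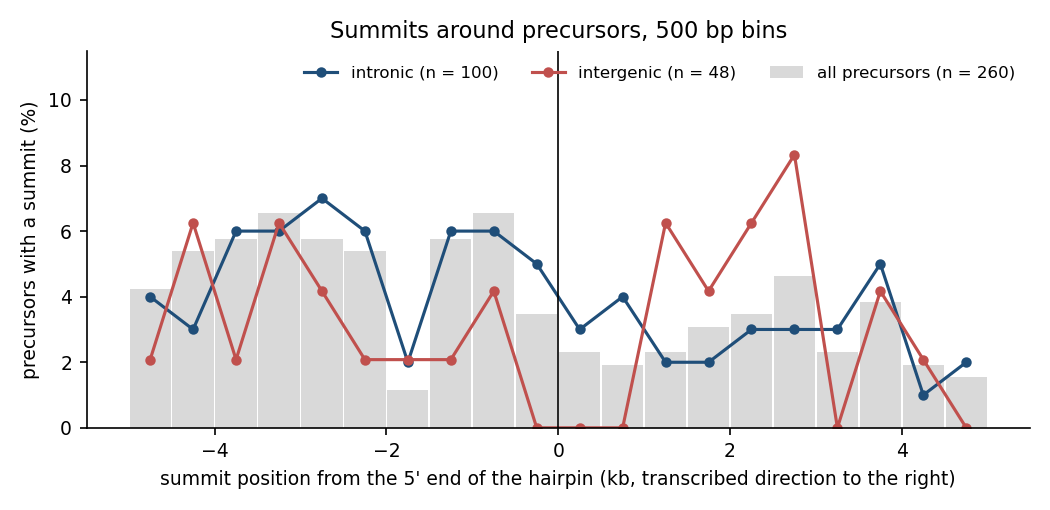
Percent of precursors with a summit in each 500 bp bin from 5 kb upstream to 5 kb downstream of the hairpin's 5′ end. Bars are all 260 precursors and lines the 100 intronic and 48 intergenic ones. A precursor counts once in a bin. The highest bars, 6.54%, are at 3000 to 3500 and at 500 to 1000 bp upstream, and no intergenic precursor had a summit in the bins from 500 bp upstream to 1000 bp downstream.

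Host genes were those that hold a precursor on their strand, and a promoter summit was one no more than 500 bp from a TSS of the host. Of 130 protein-coding hosts, 45 did (34.6%, 27.0 to 43.1), against 21.4% of all protein-coding genes. Of 38 noncoding hosts, 8 did (21.1%, 11.1 to 36.3), against 10.8% of noncoding RNA genes. Coding hosts had a median of 2 TSSs and a span of 13460 bp, against 1 and 2164 bp for all protein-coding genes. Within genes of equal TSS number, the shares were closer. With 1 TSS, 20.7% of hosts (12.3 to 32.8) and 15.2% of all coding genes had a promoter summit. With 2 to 3 it was 38.5% against 34.6%, and with 4 or more it was 65.0% against 68.4%. The hosts of highest signal were lncRNA:CR31044 (1404), Btk, a tyrosine kinase and host of mir-2b-1 (1255), the cGMP-dependent kinase gene for, host of mir-4972 (976.7), and lncRNA:CR43651 (853.5). Any TSS of a host counted throughout, including one downstream of the hairpin, whose transcript does not hold the hairpin. The 976.7 summit of for lay at such a TSS. Upstream of mir-4972, the summit at a for TSS had a signal of 83.71, at −3003 bp.

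**Figure D5:**
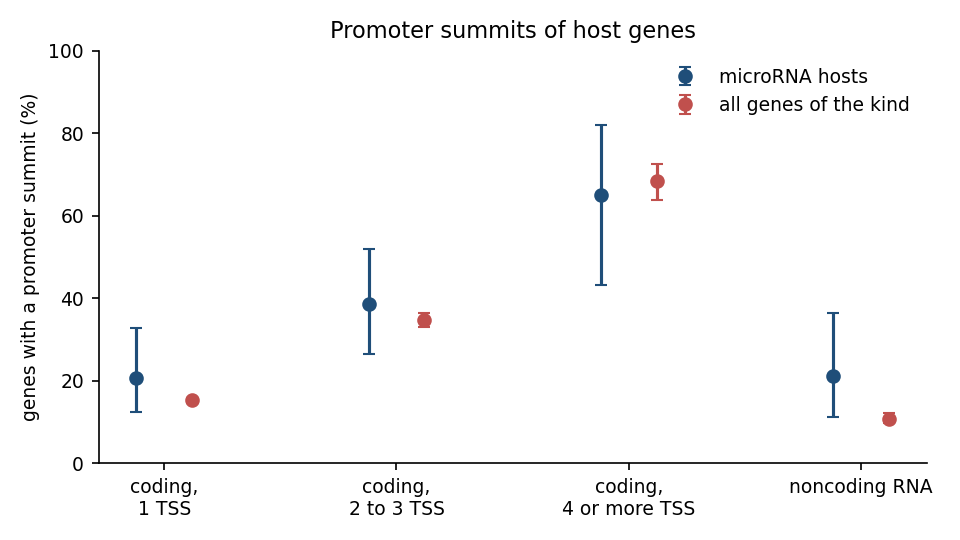
Share of genes with a summit within 500 bp of a TSS (percent, points) with 95% Wilson intervals, for microRNA hosts and all genes of the kind, by number of TSSs for coding genes. The intervals of hosts include the share of all genes at each number of TSSs, and for noncoding RNA genes the host share is 21.1% against 10.8%.

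Of 9 precursors of the let-7 complex and developmental timing, 7 had an upstream summit, 3 of them through 1 shared peak, and 1, mir-14, also had summits within 500 bp. The let-7 complex, which times the remodelling of nerve and muscle at metamorphosis, is a cluster of mir-100, mir-let7 and mir-125 in lncRNA:let7C. They shared 1 summit of 116.1 (41.91 and 77.37), at −2654, −3254 and −3535 bp, which lay inside the host RNA, 13063 bp past its nearest TSS. Replicate 1's own list had no summit within 5 kb upstream of these 3, whereas replicate 2's list did. The host had no promoter summit in the conservative list or in replicate 1's, but had one in replicate 2's. mir-8, which promotes growth through the fat body, had an upstream summit of 241.9, 142 bp before a TSS of lncRNA:CR43650. mir-34 and mir-252 had none in the conservative list.

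Of 17 precursors linked to growth and cell death, 7 had an upstream summit, and of these only mir-11 had one within 500 bp. bantam (mir-ban), which drives growth and blocks the death gene hid, had a summit of 212.6 (84.02 and 133.7) at −1479 bp, and its host RNA lncRNA:CR43334 one of 210.8 at a TSS. mir-2a-1, mir-2a-2 and mir-2b-2, in spi, a gene for a ligand of the epidermal growth factor receptor, shared a summit of 196.7 (79.54 and 117.7). mir-278, mir-bft and mir-263b had none, though CG42524, the host of mir-278, had a promoter summit of 87.03. In the muscle list, 3 of 5 had an upstream summit: mir-9a, mir-92b and mir-1, whose summit of 114.3 (58.52 and 55.74) stood at −3623 bp and was higher in replicate 1. mir-133 and mir-92a had none.

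Of 11 neural precursors, 4 had an upstream summit, mir-279, mir-996, mir-9a and mir-87, and 0 had one within 500 bp. mir-124, the neuron microRNA, mir-7 and mir-190 had none, though rhea, the host of mir-190, had a promoter summit of 159.2. The 4 Hox cluster precursors, mir-10, mir-993, mir-iab-4 and mir-iab-8, had none by either rule. In the metabolism list, 9 of 11 had an upstream summit, 4 of them in the mir-310 cluster with 1 shared peak, and 1, mir-275, one within 500 bp. mir-33, which lies in SREBP and acts on lipid metabolism, had a summit of 209.4 (103.5 and 96.48) at −3508 bp, and mir-317 had 245.8 at −3402 bp. mir-277 and mir-34 had no summit in the conservative list by either rule, but each replicate's own list had one within 5 kb upstream of both. The TSS of their host lncRNA:CR43459 had one of 120.1 in the conservative list, but none in either replicate's own list. The count of each list is to be read against the 30.8% of all precursors and 31.3% of all genes, and the lists overlap and share peaks.

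The protein genes that make and use microRNAs, with 3 of the small interfering RNA branch, were read at their promoters, and the values after a gene are its signal in the conservative list, then in replicate 1 and in replicate 2. Of 31 such genes, 11 had a summit within 500 bp of a TSS, against 21.4% of protein-coding genes, and without the small interfering RNA branch it was 9 of 28 (32.1%, 17.9 to 50.7). All 11 had 2 or more TSSs. With 2 to 3 TSSs, 10 of 15 genes had a summit (66.7%, 41.7 to 84.8), against 34.6% of coding genes. With 4 or more it was 1 of 1, against 68.4%. With 1 TSS it was 0 of 15 (0 to 20.4), against 15.2%. The genes were chosen with earlier results of these data known, and no difference was tested. At the stricter IDR of 0.001 the 11 fell to 6. For nuclear processing and export, 2 of 7 did: Ars2 (145.6; 48.24 and 98.04), which brings primary transcripts to Drosha, and the cap-binding Cbp80 (82.16; 37.77 and 54.31). drosha, pasha and Ranbp21 had none. For dicing and loading, 2 of 5 did: AGO1, the microRNA Argonaute (200.3; 64.88 and 139.1), and the chaperone Hsp83 (269.9; 93.15 and 174.9). Dcr-1, loqs and Stip1 had none.

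Of 12 silencing effectors, 5 had a promoter summit, led by gw, the partner of Argonaute-1 (157.6; 31.44 and 131.4), the decapping enzyme DCP2 (147.2; 52.5 and 109.5) and the deadenylase twin (144.3; 35.62 and 100.6). Pop2, another deadenylase, had 105.5 (55.16 and 50.27). Not1, Ge-1 and me31B had none. None of the 4 genes of tailing, trimming and turnover had one, Tailor, Nbr and Hen1 among them. In the related small interfering RNA branch, 2 of 3 did: AGO2 (391.4; 180.7 and 240.1), the highest signal of the pathway genes, and r2d2 (198.6; 64.68 and 133.8), while Dcr-2 had none.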

How the data were processed

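Pupae aged 2 days with a CG32121-eGFP fusion were assayed by ChIP-seq in 2 replicates. The peak lists in dm6 were deposited by the authors and thresholded or ranked by irreproducible discovery rate (IDR); no source used here names the aligner or caller. The signal of each peak, its summit offset and the −log10 of its global IDR were deposited by the authors. The number of reads is unknown, so intervals cover counting error only. The reference was Release 6, on which dm6 is based, and every peak ended within its arm lengths. Summits are column 2 plus column 10. The biotype is that of the transcript, since the gene biotype of these genes is ncRNA. Replicate signals are those of the nearest summit within 200 bp in each ranked list, and close peaks can take the same one. Intervals are 95% Wilson and Newcombe (statsmodels 0.14.6, Python 3.11.15), with no test of the list, since 1 group has no contrast. The counting was tested on simulated peaks. The members and lists were chosen with earlier results of these data known; 4 list symbols were updated and 1 found no gene. Genes named are all precursors with a summit within 500 bp, the 12 of highest signal upstream only, and up to 4 of highest signal and 3 without a summit per list, with their hosts; hosts of highest promoter signal, precursors at the limits, intergenic ones and peaks outside the list were named after their values were seen. Sequences on arm 2R are not printed. Alternatives are given in the closing section.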

Additional observations from a re-analysis of the deposited data

Results flagged for a closer look

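The ranked list of the series held 172 peaks on the arms that are within the IDR limit of 0.01 and are not in the conservative list, so they are not used in the counts above. They stood within 5 kb upstream of 4 precursors, mir-9374, mir-2283, mir-2493 and mir-4949, and within 500 bp of 1, mir-9374. mir-9374 already counts among the 80 upstream, through a conservative summit of 82.26 at −3827 bp, but not within 500 bp. mir-2283, mir-2493 and mir-4949 read as having no summit by either rule.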

How the results depend on the processing

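A count was taken as the same when within 1.5 times the main one, and a difference when within the SD of the replicates' values, 0.707 points within 500 bp and 2.53 upstream. By that tolerance 34 of 58 alternatives were the same, 24 moved and 0 reversed. Counts within it still shifted, such as 14 to 10 precursors within 500 bp at the stricter IDR and 80 to 116 upstream at 10 kb. The 2 replicates' own lists gave 9 to 12 precursors within 500 bp, 52 to 79 upstream, 46 to 63 loci, 36 to 55 hosts and 8 to 12 pathway genes, and differences between intronic and intergenic of 5.0 to 6.0 points within 500 bp and 9.17 to 12.8 upstream. A stricter IDR of 0.001 left 53 precursors upstream, 31 hosts and 6 pathway genes, with differences of 6.0 and 16.8 points. Windows of 250 bp and 2 kb gave 7 precursors, 38 upstream and 35 loci, with a difference of 3.0 points within 250 bp. Windows of 1000 bp and 10 kb gave 31 precursors, with differences of 8.83 and 19.9 points. Within 500 bp, the difference was 7.0 points with the other list of the series, 10 with any base of the peak, 9.0 from the nearest base of the hairpin, 5.0 without summits at coding start sites and 8.89 by separate loci. Upstream, it was 1.25 without summits at coding start sites and 16.7 by separate loci. The interval excluded 0 in the 5 settings given above with their intervals. The cause of these changes was not tested. No paired analysis was possible because there is 1 group. Depth is unknown, so a missing peak is not evidence of absence.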

Other observations

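The largest locus, 12 precursors on the X chromosome from mir-972 to mir-979, had no summit by either rule. The mir-959 to mir-964 cluster of 6, the mir-309 to mir-6 cluster of 8 and the mir-982 to mir-984 cluster of 5 likewise had none. Of the 22 loci with several precursors, 9 had an upstream summit (40.9%, 23.3 to 61.3), against 57 of 181 loci with 1 (31.5%, 25.2 to 38.6), and the intervals overlap.

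Shares by arm differed for precursors. Upstream summits were found at 26 of 56 on 2L (46.4%), 20 of 55 on 2R (36.4%), 11 of 31 on 3L (35.5%), 13 of 58 on 3R (22.4%), 10 of 58 on X (17.2%) and 0 of 2 on chromosome 4. Over all genes the same rule gave 29.8% on 2L, 31.5% on 2R, 33.1% on 3L, 32.7% on 3R, 30.4% on X and 11.4% on chromosome 4. The 58 precursors on X include the locus of 12 and the mir-982 to mir-984 cluster of 5, each without a summit. Precursors of a cluster share peaks, and the difference between arms was not tested.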
